A study of Mus musculus with 18 samples.

Results

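The goblet cell secretory genes described here were Muc2, Clca1, Klk1, Zg16, Tff3, Fcgbp, Agr2, Spdef, Retnlb and Bcas1, chosen by name as genes of the mucus-secreting cells of the gut. The choice was made with earlier results of these data known. All 10 were on the array, of 32202 genes in all, with 14 of its 41174 probes: 3 for Muc2, 2 each for Fcgbp and Bcas1 and 1 for each of the others. All 14 passed the filter on dim probes, and each was well above background in the sample channel on all 18 arrays. No spot of theirs was saturated. The probe with the brightest sample signal stood for its gene, and the others are given where they differ.

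Intestinal RNA of male C57BL/6 mice was measured in 6 groups of 3 arrays, which the series design calls biological replicates. Tumours came from mice injected with azoxymethane (AOM), a carcinogen that induces intestinal tumours in rodents, on a St. John's wort diet (SJW tumour) or a control diet (control tumour). Non-tumour tissue came from AOM-injected mice on each diet (SJW AOM, control AOM) and from saline-injected mice on each diet (SJW saline, control saline). Each array set 1 sample, in red (Cy5), against the same commercial pool of Swiss Webster RNA, in green (Cy3), made from embryos and 9 adult organs without intestine, and dyes were not swapped. Values are log2 ratios of sample over pool, and changes are differences of group means ± SE in 1 fit over all arrays. The labels do not say whether tumour and non-tumour pieces came from the same mice, nor the dose or timing of AOM or of the diet.

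The share of probes whose red signal cleared background was 66.0% to 91.8% per array, and the median red signal was 336.5 to 786.5 on tumour and 133 to 375 on non-tumour arrays. Tumours occupied 2 slides read on a second scan day, apart from the 3 slides of the 12 non-tumour arrays, each of which held 1 array of each group. Tumour, slide and scan day therefore cannot be told apart. Although the labels name small intestine as the tissue, their RNA extraction text speaks of liver. Of 13 markers of the small intestine, 10 cleared background in red on all 6 saline arrays, as did 10 of 10 colon markers. On non-tumour arrays Fabp2 and Slc5a1, for fatty acid binding and glucose uptake in the small intestine, were at 3.45 to 6.14 and 1.92 to 3.23, the colon marker Car1 at 6.34 to 8.38 and the liver gene Alb at -4.08 to -1.90. The tissue is called intestine here.

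Goblet cells fill granules with the gel-forming mucin MUC2 and with proteins that travel with it, and release them as the mucus layer that keeps bacteria away from the epithelium. The mucin is folded in the endoplasmic reticulum, decorated with sugars in the Golgi and stored dehydrated until release. The fate is reached from crypt progenitors that escape Notch signalling, express the basic helix-loop-helix factor Atoh1 and then the ETS factor Spdef, and differentiated goblet cells are known to be sparse in many intestinal tumours.

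Promoter windows of 300 bases, from 250 before to 50 after the annotated start, were on hand from RefSeq (GRCm38.p6) for 5 of the 10 genes: Muc2, Fcgbp, Klk1, Agr2 and Spdef. The 3 printed here hold an E-box, the kind of motif that basic helix-loop-helix factors such as Atoh1 bind, and belong to genes that fell together in tumours. They are written 5′ to 3′ on the coding strand, with E-boxes (CAGCTG, or CAGATG and its reverse CATCTG) and the box TATAAA in capitals. The windows are chr7:141690090-141690389, chr7:28070986-28071285 and chr7:44225110-44225409, all on the plus strand.
Muc2: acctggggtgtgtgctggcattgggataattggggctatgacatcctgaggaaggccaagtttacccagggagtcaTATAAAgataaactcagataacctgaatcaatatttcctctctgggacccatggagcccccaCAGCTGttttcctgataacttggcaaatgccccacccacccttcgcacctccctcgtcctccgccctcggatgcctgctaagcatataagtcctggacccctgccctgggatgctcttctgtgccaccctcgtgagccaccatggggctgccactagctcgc
Fcgbp: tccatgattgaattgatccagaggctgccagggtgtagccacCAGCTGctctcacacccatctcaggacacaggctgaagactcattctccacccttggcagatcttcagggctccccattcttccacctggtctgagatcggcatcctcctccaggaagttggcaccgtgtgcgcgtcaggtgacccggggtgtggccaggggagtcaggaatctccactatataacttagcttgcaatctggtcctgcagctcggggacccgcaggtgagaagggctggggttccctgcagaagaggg
Klk1: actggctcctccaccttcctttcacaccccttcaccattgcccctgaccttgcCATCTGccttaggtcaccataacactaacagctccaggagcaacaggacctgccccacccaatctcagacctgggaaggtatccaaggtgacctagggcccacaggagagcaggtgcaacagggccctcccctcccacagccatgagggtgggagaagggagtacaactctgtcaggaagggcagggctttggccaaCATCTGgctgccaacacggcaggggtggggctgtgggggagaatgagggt
Muc2 and Fcgbp had 1 CAGCTG each, beginning at positions -112 and -208 from the start, and 16.3% of 32851 windows of this length held that motif. Klk1 had 2 CATCTG, the reverse complement of CAGATG, whose motif was in 17.2% of windows. TATAAA, present in Muc2, was in 13.6%. The ETS cores GGAA and GGAT were in all 5 windows, but also in 96.0% and 79.6% of all windows, and the forkhead motif TGTTTAC was in 0 of 5 against 3.65%. Agr2 and Spdef held neither E-box and also fell in tumours. A match describes these letters only.

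Goblet cell genes were lower in tumours than in AOM non-tumour tissue. Of the 10 genes, 9 were lower in tumours on the SJW diet, where 15.5% of all 26067 genes were called lower, and 9 on the control diet, where 19.5% were. Here and below a call is a limma adjusted p under 0.05 (Benjamini-Hochberg over all genes tested). The median change of the 10 was -2.64 on the SJW diet and -3.25 on the control diet, against -0.07 and -0.06 for all genes. For the same 9 genes every tumour array lay below every AOM array of its diet, which was the case for 28.6% (SJW diet) and 24.8% (control diet) of all genes. In bulk tissue, fewer goblet cells and less RNA per goblet cell cannot be told apart.

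**Figure D1:**
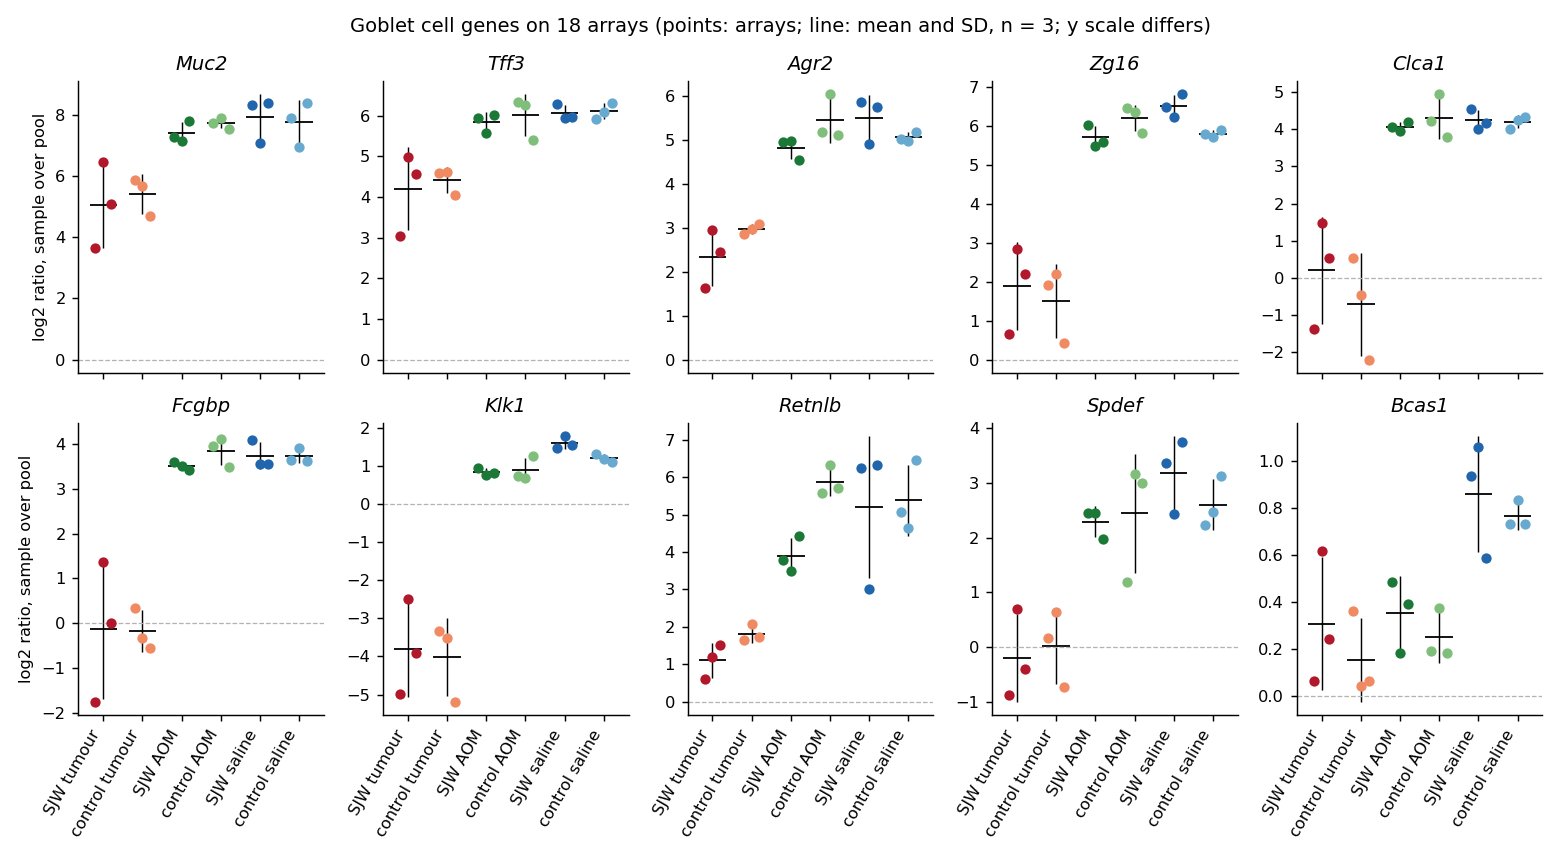
Log2 ratio of sample over pool (y axis, scale differing by panel) for the 10 goblet cell genes in the 6 groups (x axis); points are arrays, and lines are the mean and SD of 3. In 9 panels the tumour arrays lie below all AOM arrays of their diet, and Bcas1 is the exception.

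The structural components of mucus came first. Muc2, the gel-forming mucin, was at 3.63, 6.45 and 5.08 in SJW tumours, against 7.26, 7.14 and 7.80 in SJW AOM tissue. It was at 5.87, 5.68 and 4.68 in control-diet tumours, against 7.74, 7.89 and 7.55 in control AOM tissue. The groups did not overlap on either diet, and SJW tumour replicate 1 was the lowest and replicate 2 the highest of the 6 tumours. Muc2 fell by 2.35 ± 0.56 on the SJW diet (adjusted p = 0.00688, 5.08-fold lower) and fell by 2.32 ± 0.56 on the control diet (adjusted p = 0.00559, 4.98-fold lower). Its other 2 probes fell as well, with changes of -3.10 ± 0.50 and -2.64 ± 0.50 on the SJW diet and -3.11 ± 0.50 and -2.83 ± 0.50 on the control diet (adjusted p = 3.85e-04, 0.00142, 2.74e-04 and 6.39e-04). Of these 2, the first was not well above background in the pool channel on any tumour array, so its ratio there rests on a pool signal near background.

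Clca1, a secreted metalloprotease that processes the mucus gel, showed one of the steepest falls. It was at -1.38, 1.46 and 0.52 in SJW tumours, against 4.06, 3.94 and 4.20 in SJW AOM tissue. In control-diet tumours it was at 0.54, -0.46 and -2.19, against 4.22, 4.94 and 3.78 in control AOM tissue. The groups did not overlap, and the tumours spread over more than 2 log2 units on each diet. Clca1 fell by 3.86 ± 0.62 on the SJW diet (14.6-fold lower, adjusted p = 3.87e-04) and fell by 5.02 ± 0.62 on the control diet (32.3-fold lower, adjusted p = 3.12e-05).

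Fcgbp, a large mucus protein that binds MUC2, was at -1.75, 1.37 and 0.00 in SJW tumours, against 3.60, 3.50 and 3.42 in SJW AOM tissue. It was at 0.34, -0.32 and -0.57 in control-diet tumours, against 3.96, 4.10 and 3.48 in control AOM tissue. Tumours were scattered around the level of the pool, and non-tumour tissue lay above it on every array. Fcgbp fell by 3.63 ± 0.50 on the SJW diet (12.4-fold lower) and fell by 4.03 ± 0.50 on the control diet (16.3-fold lower), with adjusted p of 1.11e-04 and 3.33e-05. Its other probe gave a similar picture, -3.34 ± 0.52 on the SJW diet and -3.76 ± 0.52 on the control diet.

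Zg16, a small lectin of the mucus that binds and aggregates Gram-positive bacteria, was at 0.65, 2.84 and 2.20 in SJW tumours, against 6.04, 5.49 and 5.60 in SJW AOM tissue. It was at 1.91, 2.21 and 0.42 in control-diet tumours, against 6.46, 6.36 and 5.83 in control AOM tissue. The gap between the lowest non-tumour and the highest tumour array exceeded 2 log2 units on both diets. Zg16 fell by 3.82 ± 0.47 on the SJW diet (14.1-fold lower, adjusted p = 3.86e-05) and fell by 4.70 ± 0.47 on the control diet (26.0-fold lower, adjusted p = 4.64e-06).

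A further group of members encodes secreted proteins that are not part of the mucin scaffold. Klk1, tissue kallikrein, a serine protease, was at -5.00, -2.49 and -3.90 in SJW tumours, against 0.96, 0.76 and 0.82 in SJW AOM tissue. It was at -3.34, -3.52 and -5.18 in control-diet tumours, against 0.75, 0.68 and 1.26 in control AOM tissue. Klk1 lay below the pool in all 6 tumours and above it in AOM tissue on both diets, and the pool held kidney, an organ known to express it. It fell by 4.64 ± 0.49 on the SJW diet (24.9-fold lower, adjusted p = 1.16e-05) and fell by 4.91 ± 0.49 on the control diet (30.1-fold lower, adjusted p = 4.87e-06). Klk1 belongs to a family of closely related kallikrein genes, so its value is uncertain as that of a single gene.

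Retnlb, the antibacterial resistin-like molecule beta, was at 0.60, 1.20 and 1.50 in SJW tumours, against 3.79, 3.48 and 4.43 in SJW AOM tissue. It was at 1.63, 2.08 and 1.72 in control-diet tumours, against 5.59, 6.32 and 5.72 in control AOM tissue. All 6 tumours lay below all AOM arrays, by a narrower margin on the SJW diet. Retnlb fell by 2.80 ± 0.67 on the SJW diet (6.96-fold lower, adjusted p = 0.00661) and fell by 4.07 ± 0.67 on the control diet (16.8-fold lower, adjusted p = 3.34e-04). The pool was well above background for Retnlb on 0 of 6 tumour and 8 of 12 non-tumour arrays, so the size of these changes is uncertain.

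Tff3, the trefoil peptide of goblet cells that aids repair of the epithelium, was at 3.05, 4.99 and 4.57 in SJW tumours, against 5.95, 5.57 and 6.01 in SJW AOM tissue. It was at 4.60, 4.62 and 4.05 in control-diet tumours, against 6.34, 6.27 and 5.41 in control AOM tissue. The groups did not overlap, with SJW tumour replicate 1 the lowest. Tff3 fell by 1.64 ± 0.37 on the SJW diet (3.13-fold lower, adjusted p = 0.00468) and fell by 1.59 ± 0.37 on the control diet (3.01-fold lower, adjusted p = 0.00443). Without SJW tumour replicate 1 the change on the SJW diet was -1.07 (adjusted p = 0.0128).

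The last 3 members act inside the cell. Agr2, a protein disulphide isomerase of the endoplasmic reticulum needed to make MUC2, was at 1.62, 2.94 and 2.46 in SJW tumours, against 4.95, 4.97 and 4.54 in SJW AOM tissue. It was at 2.87, 2.96 and 3.08 in control-diet tumours, against 5.19, 6.03 and 5.11 in control AOM tissue. The groups did not overlap, and the control-diet tumours lay close together. Agr2 fell by 2.48 ± 0.31 on the SJW diet and fell by 2.47 ± 0.31 on the control diet, 5.57-fold and 5.56-fold lower, with adjusted p of 4.88e-05 and 3.62e-05.

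Spdef, the ETS transcription factor of goblet cell maturation, was at -0.86, 0.70 and -0.40 in SJW tumours, against 2.46, 2.45 and 1.97 in SJW AOM tissue. It was at 0.17, 0.65 and -0.72 in control-diet tumours, against 1.19, 3.15 and 2.99 in control AOM tissue. Control AOM replicate 1 was the low one of its group and still above all tumours. Spdef fell by 2.48 ± 0.51 on the SJW diet and fell by 2.41 ± 0.51 on the control diet, 5.57-fold and 5.32-fold lower, with adjusted p of 0.00259 and 0.00233.

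Bcas1, whose protein is best known from myelinating oligodendrocytes, gave different answers from its 2 probes. The probe used was the brighter over all 18 arrays, but not in each tissue: its median red signal was 9028.5 on tumour and 1777.75 on non-tumour arrays, against 1100.5 and 2352.5 for the other probe. The probe used was at 0.06, 0.62 and 0.24 in SJW tumours, against 0.49, 0.18 and 0.39 in SJW AOM tissue. It was at 0.36, 0.04 and 0.06 in control-diet tumours, against 0.19, 0.38 and 0.18 in control AOM tissue. The groups overlapped, and the differences were -0.05 ± 0.16 (95% interval -0.38 to 0.29, adjusted p = 0.861) and -0.09 ± 0.16 (95% interval -0.43 to 0.24, adjusted p = 0.681). The other probe was at -0.70, 0.11 and -1.04 in SJW tumours, against 1.11, 0.93 and 0.64 in SJW AOM tissue. On the control diet it was at -0.45, -0.88 and -1.17 in tumours, against 0.96, 0.72 and 1.11 in AOM tissue. It fell by 1.44 ± 0.25 on the SJW diet and fell by 1.76 ± 0.25 on the control diet (adjusted p = 6.41e-04 and 8.92e-05), like the other 9 genes, with no overlap. Which probe reports the gene was not tested.

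**Figure D2:**
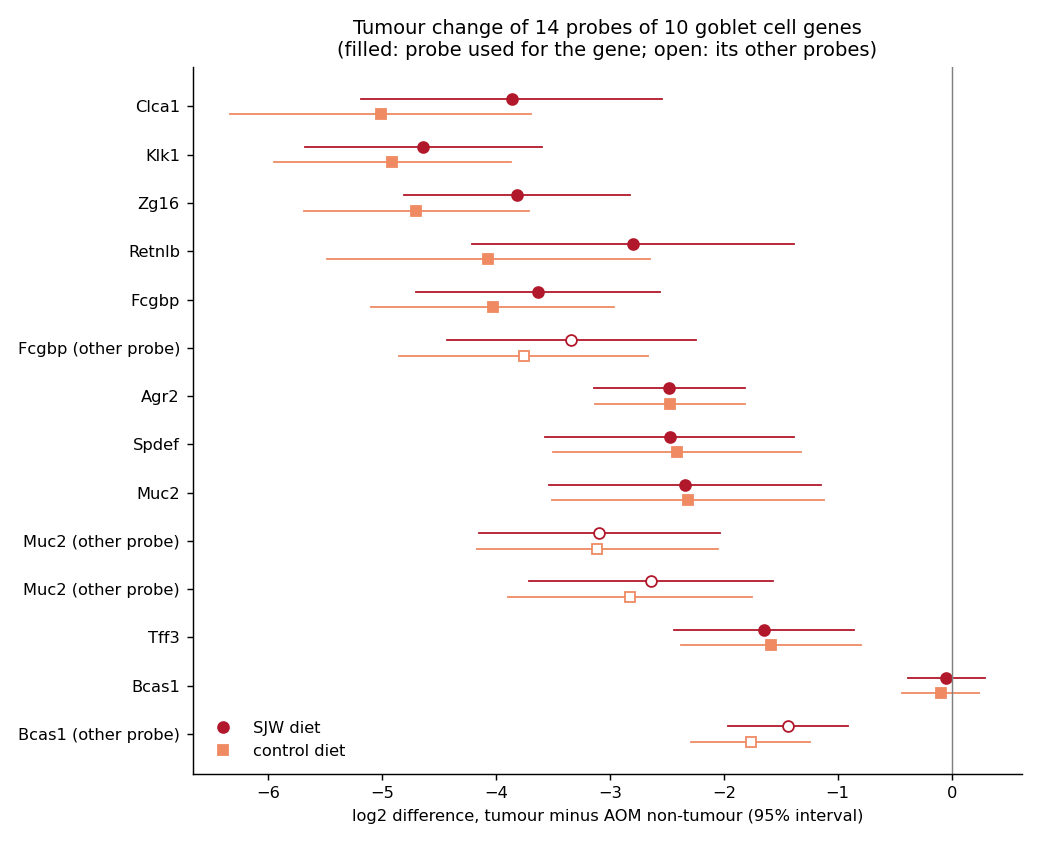
Log2 difference of tumour minus AOM non-tumour tissue (x axis) with its 95% interval for the 14 probes (y axis, genes ordered by the control-diet change of the probe used); circles are the SJW diet, squares the control diet, filled symbols the probe used for each gene. Intervals of 13 probes lie below 0 on both diets, and those of the Bcas1 probe used cross it.

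Saline tissue as the baseline gave similar values, with all 10 genes called lower in tumours on the SJW diet (22.7% of all genes) and on the control diet (19.6%). The changes reached -5.40 ± 0.49 and -5.22 ± 0.49 for Klk1, -4.63 ± 0.47 and -4.29 ± 0.47 for Zg16 and -2.87 ± 0.56 and -2.34 ± 0.56 for Muc2, on the SJW and control diets. These comparisons share their tumour arrays with the ones above. The other 2 Muc2 probes changed by -4.42 ± 0.50 and -4.17 ± 0.50 on the SJW diet and by -3.08 ± 0.50 and -2.80 ± 0.50 on the control diet. The Bcas1 probe used fell by 0.55 ± 0.16 on the SJW diet (adjusted p = 0.0127) and fell by 0.61 ± 0.16 on the control diet (adjusted p = 0.00834). Its other probe fell by 2.07 ± 0.25 and fell by 2.21 ± 0.25 (adjusted p = 1.16e-05 and 7.65e-06). For the probe used, the SJW call was lost at a smaller difference without SJW saline replicate 2 (-0.45, adjusted p = 0.0584) and without SJW tumour replicate 1 (-0.43, adjusted p = 0.068), and at the same difference with only the compared groups in the fit (-0.55, adjusted p = 0.0561). Leaving out spots marked as non-uniform as well gave -0.45 on the SJW diet and -0.55 on the control diet (adjusted p = 0.153 and 0.0795), and median centring gave -0.22 and 0.22 (adjusted p = 0.568 and 0.505).

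The size of the change depended on the reference signal, most of all for the probes used for Muc2, Tff3 and Bcas1. The pool was the same RNA on every array, yet its green signal over the array's median at the spots of the Muc2 probe used was 0.163 to 0.402 on tumour arrays, against 0.58 to 1.67 on non-tumour arrays. At the Tff3 spots it was 0.485 to 1.48 on tumour arrays, against 2.39 to 4.85 on non-tumour arrays. The ratio of the tumour to the non-tumour median was 0.31 for Muc2 and 0.288 for Tff3, and 0.0767% and 0.0575% of all genes had a lower one. The other 2 Muc2 probes had ratios of 0.583 and 0.634, with ranges that overlapped (0.0543 to 0.177 on tumour against 0.116 to 0.37 on non-tumour arrays, and 0.174 to 0.361 against 0.258 to 1.26). Spdef and Retnlb were also lower without overlap, with ratios of 0.652 and 0.59, and 2.57% and 1.37% of all genes had a lower one. Their ranges were 0.57 to 0.624 on tumour against 0.79 to 2.12 on non-tumour arrays, and 0.0702 to 0.179 against 0.208 to 0.747. For Retnlb the pool was not well above background on any tumour array. Before division by the array median its green signal overlapped, at 42 to 53 on tumour and 50 to 407 on non-tumour arrays. How many of all genes lay without overlap in pool signal was not counted. The 1st to 99th percentile of the ratio over genes was 0.563 to 3.92, and Klk1, Fcgbp and Clca1 were at 1.06, 1.03 and 0.931.

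With red signals alone, quantile normalized between arrays, the tumour change of this Muc2 probe was -3.74 ± 0.70 on the SJW diet and -4.38 ± 0.70 on the control diet. That of Tff3 was -3.75 ± 0.63 and -3.58 ± 0.63. Both were larger than the changes of the ratio by over 1.5 times. Muc2 and Tff3 ranked behind Clca1, Klk1 and Zg16 in ratios and in red signal alone, and the gap was narrower in red signal. For the Bcas1 probe used the pool signal was 2.49 times higher on tumour than on non-tumour arrays, and its red signal alone rose in tumours by 1.07 ± 0.35 and 1.29 ± 0.35 (adjusted p = 0.0292 and 0.0115). Clca1, Klk1, Zg16 and Fcgbp changed by similar amounts either way, for example Klk1 by -4.85 ± 0.45 and -5.17 ± 0.45 in red alone. Retnlb, Spdef and Agr2 fell further in red alone than in ratios. Retnlb changed by -3.30 ± 0.73 on the SJW diet and -5.23 ± 0.73 on the control diet. Spdef changed by -2.87 ± 0.34 and -3.155 ± 0.34, and Agr2 by -3.29 ± 0.36 and -3.07 ± 0.36. Why the pool signal moved with the sample was not tested.

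**Figure D3:**
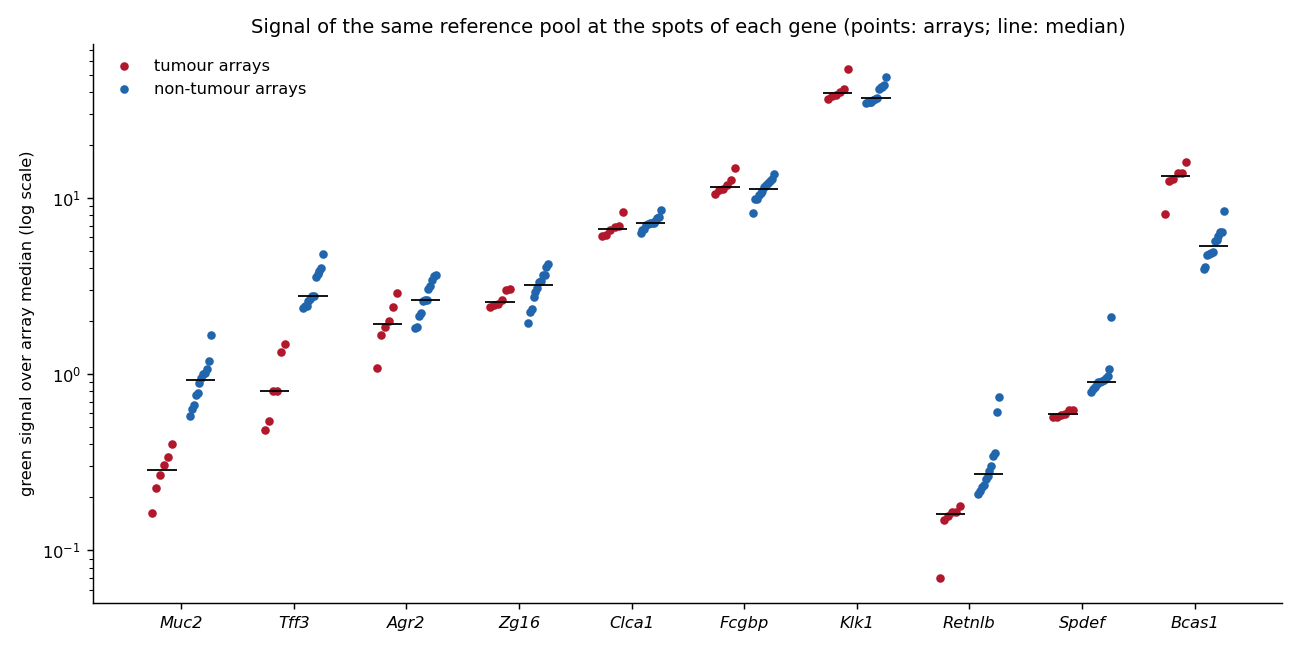
Green signal of the reference pool divided by the array's median green signal (y axis, log scale) at the probe used for each gene (x axis) on 6 tumour (red) and 12 non-tumour (blue) arrays; points are arrays and lines medians. Muc2, Tff3, Spdef and Retnlb are lower on all tumour arrays than on any non-tumour array, while the other genes overlap. For Retnlb the pool was not well above background on any tumour array.

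The goblet cell genes varied together from tumour to tumour. Their mean log2 ratio was 0.06, 2.01 and 1.23 in SJW tumours and 1.49, 1.39 and 0.53 in control-diet tumours, against 3.75 to 4.76 on the 12 non-tumour arrays. In SJW tumour replicate 1 all 10 genes were below their group mean and in replicate 2 all 10 were above it. As a description, the deviations from group means had a median correlation of 0.836 over the 45 pairs of members on 6 tumour arrays, against 0.352 on 12 non-tumour arrays. Deviations of 3 arrays from their mean are tied to one another, and arrays of 1 slide share a scan. The median SD within a group was 1.08 in SJW tumours and 0.56 in control-diet tumours, against 0.168 to 0.365 in the non-tumour groups.

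General epithelial markers, set beside them, were also lower in tumours but by less. Of 11 such genes, among them Epcam, Cdh1 and Vil1, 10 were called lower on the SJW diet and 11 on the control diet, with medians of -1.07 and -1.01. The goblet cell genes minus these markers, as means per array, lay at -2.65 to -0.82 in the 6 tumours, against 0.05 to 0.76 on the 12 non-tumour arrays. Some other marker lists had medians further below 0, and some did not. Of 10 absorptive colon genes, 6 were called lower on the SJW diet and 7 on the control diet (medians -1.88 and -2.43), of 11 enteroendocrine genes 7 and 10 (medians -2.32 and -2.73), and of 10 smooth muscle genes 7 and 8 (medians -1.89 and -2.50). Medians lay near 0 for absorptive small intestine genes (0.02 on the SJW and -0.15 on the control diet) and tuft cell genes (-0.07 and -0.16). For Paneth cell genes they were 0.52 and 0.75. Crypt stem and Wnt genes were higher (7 of 7 on both diets), where 9.19% (SJW diet) and 12.7% (control diet) of all genes were called higher. The mean of the smooth muscle list was -0.80 to -0.37 in SJW tumours and -0.93 to -0.62 in control-diet tumours, against 0.31 to 2.54 in SJW AOM and 0.87 to 2.39 in control AOM tissue. Their part in the goblet cell changes was not tested.

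**Figure D4:**
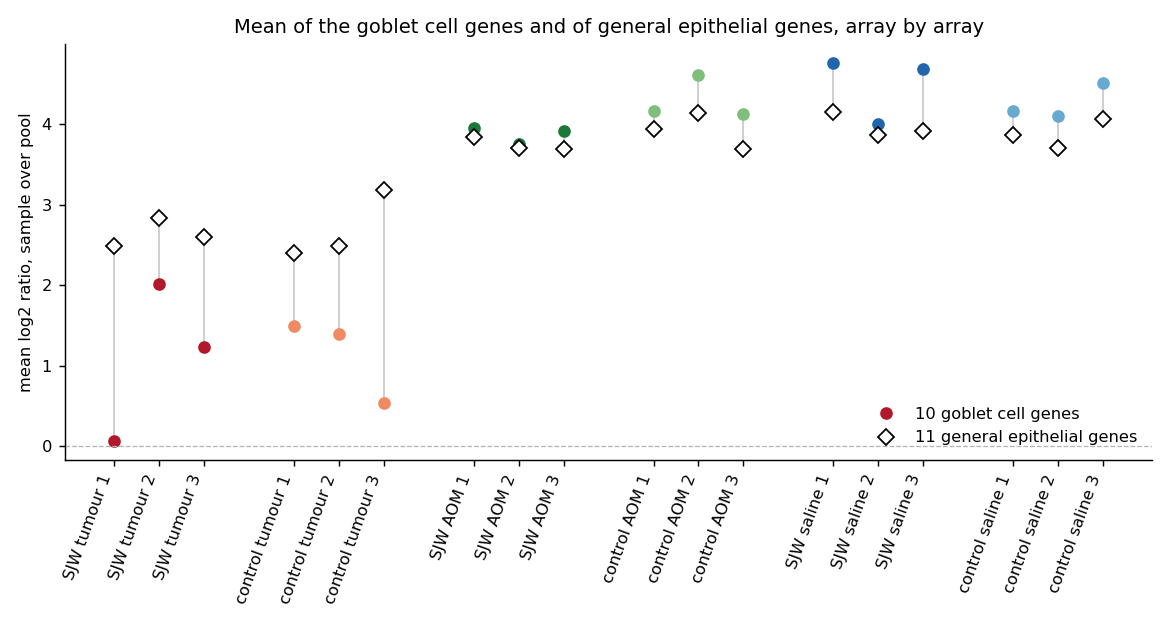
Mean log2 ratio of the 10 goblet cell genes (filled circles, coloured by group) and of 11 general epithelial genes (open diamonds) on each array (x axis); grey lines join the 2 means. In all 6 tumours the goblet cell mean lies below the epithelial mean, and on all 12 non-tumour arrays above it.

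The machinery around these genes was read from lists of other goblet cell genes. Of 19 measured secretory and granule genes, 14 were lower and 1 higher in tumours on the SJW diet, and 15 were lower and 0 higher on the control diet. Their medians were -1.01 and -1.49. Rep15, an effector of the endosomal GTPase Rab15, changed by -2.60 ± 0.36 and -2.91 ± 0.36, Rab27a, a GTPase of granule release, by -1.52 ± 0.15 and -1.78 ± 0.15, and the tetraspanin gene Tspan13 by -1.25 ± 0.18 and -1.49 ± 0.18 (SJW diet, then control diet).

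Of 17 genes for mucin O-glycosylation and sialic acid, 11 were lower on the SJW diet and 12 on the control diet, with 0 higher (medians -0.81 and -1.41). Galnt7, which adds N-acetylgalactosamine to mucin-type glycopeptides, changed by -2.08 ± 0.17 and -2.50 ± 0.17. Nans and Gne, enzymes of sialic acid synthesis, changed by -1.50 ± 0.17 and -1.39 ± 0.19 on the SJW diet and by -1.67 ± 0.17 and -1.60 ± 0.19 on the control diet. Of 11 other secreted products, 7 were lower on each diet and 0 higher, among them Mptx1 (-3.74 ± 0.62 and -3.02 ± 0.62), Spink4 (-2.56 ± 0.55 and -2.37 ± 0.55) and Lypd8 (-0.96 ± 0.25 and -1.50 ± 0.25), an inhibitor of flagellated bacteria.

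Upstream regulators were mixed. Of 13 transcription factors and Notch inputs, 6 were lower on the SJW diet and 7 on the control diet, with 1 higher on each. On each diet 4 of the 13 differences were positive. The 3 genes named next, those with the smallest p in the mean tumour change, were all lower. Klf4, a factor of goblet cell differentiation, changed by -2.25 ± 0.17 and -2.66 ± 0.17, Creb3l4 by -1.22 ± 0.20 and -1.53 ± 0.20, and Gfi1, which acts downstream of Atoh1, by -1.18 ± 0.25 and -1.56 ± 0.25. Of the other mucins 6 were measured, of which Muc4 was lower (-1.06 ± 0.30 and -1.10 ± 0.30) and Muc20 higher (0.55 ± 0.18 and 0.50 ± 0.18). Among 10 genes of the cytokine inputs to goblet cells, 2 were lower and 2 higher on each diet, against 15.5% and 19.5% of all genes called lower and 9.19% and 12.7% called higher (SJW diet, then control diet). The alarmin gene Il33 was higher (1.48 ± 0.29 and 1.22 ± 0.29), while Il18 (-0.68 ± 0.18 and -1.29 ± 0.18) and the receptor gene Il13ra1 (-0.97 ± 0.23 and -0.98 ± 0.23) were lower.

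The genes most like the mean of the 10 over all 18 arrays were Syt7, Tfcp2l1, Slc44a4, Gmppa, Rep15 and Guca2a, with Pearson correlations of 0.982 to 0.986. These arrays include the split between tumour and non-tumour tissue. By deviations from the group means over the same arrays, the most alike were Tcim, Scin, Saa2, Ccl11, Aqp1 and Wasf2, at 0.86 to 0.921.

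After AOM, in tissue without tumour, none of the 10 genes passed the test on either diet. On the SJW diet all 10 differences were negative, with a median of -0.61 against -0.02 for all genes, and 0 were called where 1.14% of all genes were. At an unadjusted p under 0.05 there were 2, against 19.3% of all genes, and 3 had groups without overlap, against 15.6% of genes lower without overlap. On the control diet 5 differences were positive and 5 negative, with a median of 0.05, and 0 were called where 0.598% of all genes were. There 1 had an unadjusted p under 0.05, against 13.6% of all genes, and the same gene, Bcas1, was lower without overlap, as were 8.24% of all genes.

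Retnlb had the largest difference after AOM on the SJW diet, -1.30 ± 0.67 (adjusted p = 0.297). It was at 3.79, 3.48 and 4.43 in SJW AOM tissue, against 6.26, 3.00 and 6.33 in SJW saline tissue. SJW saline replicate 2 stood well below the other 2, and without it the difference was -2.39 and passed the test (adjusted p = 0.014). On the control diet Retnlb was at 5.59, 6.32 and 5.72 after AOM, against 5.06, 4.64 and 6.46 after saline, groups that overlapped. The difference there was 0.50 ± 0.67 (adjusted p = 0.814).

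Muc2 showed no called difference, but its probes differed in size on the SJW diet. The probe used gave -0.53 ± 0.56 (adjusted p = 0.622), and the other 2 gave -1.33 ± 0.50 and -1.53 ± 0.50 (adjusted p = 0.159 and 0.118). Both of these 2 were lower without overlap (limma unadjusted p = 0.0173 and 0.00794), and the counts above do not include them. For the last of these the arrays were at 5.93, 4.91 and 5.27 in SJW AOM tissue, against 7.15, 6.16 and 7.39 in SJW saline tissue, without overlap. On the control diet the 3 probes gave -0.02 ± 0.56, 0.03 ± 0.50 and 0.03 ± 0.50.

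Bcas1 was lower after AOM without overlap on both diets, -0.50 ± 0.16 (unadjusted p = 0.0059, adjusted p = 0.109) on the SJW diet and -0.51 ± 0.16 (unadjusted p = 0.00524, adjusted p = 0.139) on the control diet. It was at 0.49, 0.18 and 0.39 in SJW AOM tissue, against 0.93, 1.06 and 0.58 in SJW saline tissue. On the control diet it was at 0.19, 0.38 and 0.18 after AOM, against 0.73, 0.83 and 0.73 after saline. Its other probe differed in the same direction, -0.63 ± 0.25 and -0.44 ± 0.25, and neither probe passed the test. Agr2, Zg16 and Klk1 were at -0.68 ± 0.31, -0.81 ± 0.47 and -0.76 ± 0.49 on the SJW diet, and at 0.39 ± 0.31, 0.41 ± 0.47 and -0.31 ± 0.49 on the control diet.

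Within slides, the median of the 10 genes after AOM on the SJW diet was -0.51, -0.06 and -0.66 on slides 1, 2 and 3, with 10, 6 and 8 genes negative. On the control diet it was 0.20, 0.66 and -0.34, with 4, 2 and 9 negative. The slides of the control diet thus pointed both ways. The interaction of AOM and diet was negative for 9 of 10 genes, with 0 called in limma (1 at an unadjusted p under 0.05, against 9.43% of all genes) and 0 called among all genes. A difference between the diets in the response to AOM was therefore not shown for any member.

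**Figure D5:**
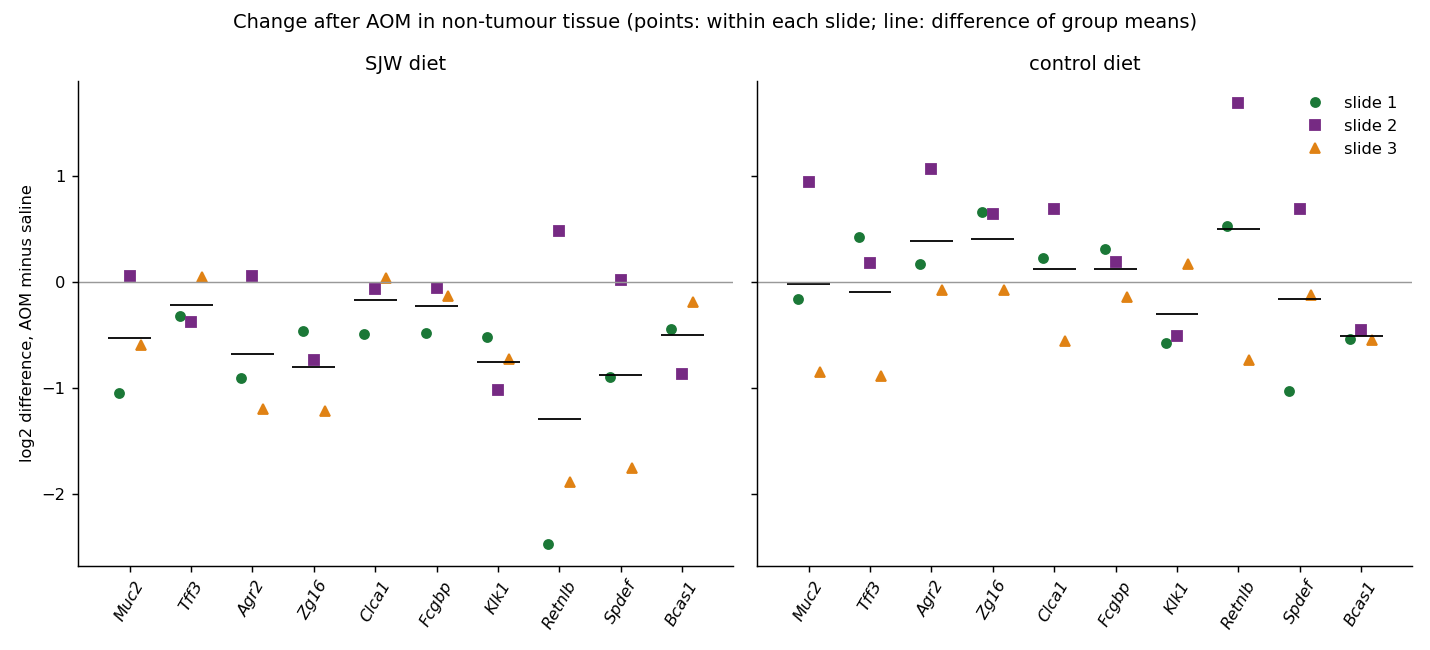
Log2 difference of AOM minus saline tissue (y axis) for the 10 genes (x axis) within each of 3 slides (points) and between group means (lines), on the SJW diet (left) and the control diet (right). Lines are below 0 for all 10 genes on the SJW diet and for 5 of 10 on the control diet, and points of slide 2 lie apart for Retnlb.

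Marker lists of other cells also differed after AOM. All 10 smooth muscle genes had positive differences on both diets (medians 1.85 on the SJW and 2.17 on the control diet), with 0 called. The list mean was 0.31 to 2.54 in SJW AOM tissue, against -0.95 to 0.24 in SJW saline tissue, and 0.87 to 2.39 in control AOM tissue, against -1.20 to 0.78 in control saline tissue. The general epithelial mean was 3.69 to 3.84 in SJW AOM tissue, against 3.87 to 4.15 in SJW saline tissue. On the control diet it overlapped, at 3.69 to 4.14 after AOM and 3.70 to 4.07 after saline. The median difference of the epithelial genes was -0.07 on the SJW and 0.04 on the control diet, with 0 called on each. Of 10 absorptive colon genes 9 had negative differences on each diet (medians -1.08 on the SJW and -0.50 on the control diet), with 2 and 1 called lower. Of 7 Paneth cell genes 3 were called higher on the SJW diet and 2 on the control diet. Of the 7, 4 had positive differences on the SJW and 5 on the control diet (medians 0.21 and 0.61). Among all genes 1.14% were called in either direction on the SJW diet and 0.598% on the control diet. The part of these lists in the values of the goblet cell genes was not tested.

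The SJW diet itself gave no called goblet cell gene, and limma called 0% of all genes in each of the 3 diet comparisons. In saline tissue 8 of 10 genes were positive (median 0.14), and 0 had an unadjusted p under 0.05, against 10.7% of all genes. Zg16 was at 6.51, 6.23 and 6.82 in SJW saline tissue, against 5.80, 5.72 and 5.90 in control saline tissue. These arrays did not overlap, and the difference was 0.71 ± 0.47 (95% interval -0.28 to 1.70, adjusted p = 0.589). Klk1 also did not overlap, at 1.48, 1.78 and 1.54 in SJW saline and 1.33, 1.19 and 1.10 in control saline tissue, and differed by 0.40 ± 0.49 (adjusted p = 0.795). Higher values without overlap were found for 8.37% of all genes. Pancreatic acinar genes had 8 of 9 positive differences here (median 0.85, 0 called), with a list mean of -0.64 to 1.52 in SJW saline tissue, against -0.86 to -0.40 in control saline tissue. The pancreas is known to express Klk1 and Zg16, and the part of acinar RNA in their values was not tested.

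After AOM, 9 of 10 genes were negative on the SJW diet against the control diet (median -0.28), and 1 had an unadjusted p under 0.05, against 3.21% of all genes. That gene was Retnlb, at 3.79, 3.48 and 4.43 in SJW AOM tissue, against 5.59, 6.32 and 5.72 in control AOM tissue. The arrays did not overlap, and the difference was -1.98 ± 0.67 (95% interval -3.40 to -0.56, unadjusted p = 0.00925), with an adjusted p of 1.00. Agr2 lay lower without overlap as well, by -0.63 ± 0.31 (unadjusted p = 0.0619), and 5.76% of all genes were lower without overlap. Pancreatic acinar genes were high in SJW AOM replicate 3, at a list mean of 3.82 against -0.77 and -0.69 in the other 2. Klk1 and Zg16 were at 0.82 and 5.60 there, within the range of the other 2 replicates.

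In tumours 5 genes were positive and 5 negative on the SJW diet against the control diet (median -0.08), with 0 at an unadjusted p under 0.05, against 5.97% of all genes. Clca1 had the largest positive difference, 0.91 ± 0.62 (95% interval -0.41 to 2.23), and Retnlb the largest negative one, -0.71 ± 0.67 (95% interval -2.13 to 0.71). Retnlb was lower without overlap, as were 5.02% of all genes. The median over the 10 genes was -0.40 on the slide with replicates 1 and 2 and 0.46 on the slide with replicate 3. The 95% interval leaves room for a difference of over 2-fold in both directions for Fcgbp (-1.01 to 1.12) and in 1 direction for each of the others but Bcas1. Its width rests on 1 spread per gene shared by all 18 arrays. The median SD was 1.08 in SJW and 0.56 in control-diet tumours, against 0.168 to 0.365 in the non-tumour groups. Intervals may thus be too narrow for tumours and too wide for non-tumour tissue. The interaction of tumour and diet had 0 calls (0 of 10 at an unadjusted p under 0.05, against 4.16% of all genes).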

How the data were processed

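The 18 intestine samples were each hybridised to a two-colour Agilent array (45018 spots, 1639 of them controls). The members and all gene lists were chosen with earlier results of these data known. Per the file headers, arrays were read with Agilent Feature Extraction 10.10.1.1 (protocol GE2_1010_Sep10). The deposited intensity values are median pixel signals of each spot and its local background. The deposited log10 ratio is, per the file headers, red over green after the software's own background and dye correction. The deposited log2 values number 35491 per array and matched red over green processed signals (slope and r of 1.00 on each array); 6 of the 14 probes are among them, and how these were selected is not stated in the sources.

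The planned mean spot signal is not among the columns used here, so the median took its place. Signals were corrected with normexp (offset 50) and loess within arrays; spots that were controls or marked as population outliers (0.506% to 0.753%) were removed. The filter asked for a red signal well above background on each of the 3 arrays in at least 1 group, which 34073 of 41174 probes passed. Names came from RefSeq (GRCm38.p6) through the accessions: 27050 probes had 1 symbol, 14124 none. The probe with the highest mean red signal stood for its gene, which gave 26067 genes. One limma 3.58.1 fit (lmFit and eBayes, R 4.3.3, data.table, version 1.17.8) of 6 group means had 12 residual degrees of freedom and 11 comparisons, with Benjamini-Hochberg adjustment over all genes in each. The fit was tested on simulated data. Named genes were the 10 members in every comparison, the 3 members of each list with the smallest p in the mean tumour change, and the 6 genes most correlated with the members' mean by either measure. Replicate number equals slide on non-tumour arrays. For SJW against control in saline tissue, same-numbered arrays correlated in their deviations (0.171, 0.407 and 0.36). For AOM against saline on the SJW diet these correlations were 0.305, 0.114 and 0.0268. Elsewhere at least 1 pair was near 0 or negative. Alternatives covered background, scaling, filters, probes, blocks and leaving out each array. P-values measure the spread between these arrays.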

Additional observations from a re-analysis of the deposited data

Results flagged for a closer look

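Zg16, the mucus lectin, had SJW differences of opposite sign after AOM and after saline on every slide. After AOM, SJW minus control was -0.42, -0.87 and -0.22 on slides 1, 2 and 3, against 0.71, 0.51 and 0.92 after saline. The mean difference between the 2 was -1.21. The interaction test in limma gave -1.21 ± 0.66 with an adjusted p of 0.565, so it did not pass.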

How the results depend on the processing

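Of 243 counts of called goblet cell genes under other settings, 235 were within 1.5 times the reported count and 8 were not. The deposited log2 table holds 6 of the members, of which 5 were called lower in tumours against AOM tissue on the SJW diet, 5 on the control diet, and 6 on each diet against saline. Without spots flagged as non-uniform and with only the compared groups in the fit, which left 3 of 18 arrays for Muc2, 4 of 5 members that could be fitted were called on the SJW diet and 5 of 6 on the control diet against AOM tissue, and 5 of 6 against saline on the SJW diet. Members without values lowered these counts. The 1 fitted member without a call was Bcas1 in the comparisons against AOM tissue, as in the reported fit, and against saline on the SJW diet, where it lost its call. Leaving out single arrays gave 0 to 1 called genes after AOM on the SJW diet (1, Retnlb, without SJW saline replicate 2), 9 to 10 in tumours against saline on the SJW diet, and no other change. With the replicate block the counts were 0, 9 and 10 as before, so the block changed no call of a member.

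Of 2345 values of members under other settings, 5 reversed, 6 lost and 5 gained a call, and 138 that were not called changed sign. The reversed values were all of Bcas1: 1.07 and 1.29 against AOM tissue and 1.19 and 0.96 against saline (SJW diet, then control diet) in red signal alone, and 0.22 against saline on the control diet with median centring. With median centring the median of all genes was 0.118 (SJW diet) and 0.139 (control diet) in tumours against saline. The mean of both Bcas1 probes changed by -0.74 (SJW diet) and -0.93 (control diet) in tumours against AOM tissue, past the threshold. The other Bcas1 probe and each probe as its own row were added after seeing the data. With the scanner's own ratio the Muc2 change on the control diet was -1.51, against -2.32. The cause was not tested. The number of arrays limits precision, the pool was near background for Retnlb, and tumour and scan day cannot be told apart.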
